A study of Mus musculus with 4 samples.

Results

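The chitinase-like and alternative activation genes described here are 10 mouse genes that are often measured together in lung macrophages, eosinophils and airway epithelium. They were Chil1, Chil3, Chil4, Chia1, Retnla, Arg1, Ccl17, Ear1, Ear2 and Cd200r2. Members were taken as every non-control array probe that carried 1 of these gene names or an older alias. That rule found 10 probes of 56605, which is 1 probe for each of 10 genes of 27195. The genes had been picked with their signal on these arrays in view, so their values are a description and no test was made on them.

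Lung RNA of C57BL/6J mice was hybridised to 4 Agilent 1-colour arrays in a layout that crossed surgery with an agent, PBS or PPE. The groups were sham surgery with PBS (sham/PBS), ORX with PBS (ORX/PBS), sham surgery with PPE (sham/PPE) and ORX with PPE (ORX/PPE). All were sampled at 3 weeks, and the labels name no mutant allele. ORX was read as orchiectomy and PPE as porcine pancreatic elastase from the title of the series, and the age of the mice is not given in the sources used here. Each group was 1 array that carried pooled RNA of 5 mice, so there was no spread between mice to set a difference against. The software's own error, given as ± here, covers the spot and not the mice, so precision is limited by having 4 arrays.

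Alternative activation is the state that macrophages take on under the cytokines IL-4 and IL-13, which signal through STAT6. Its usual mouse markers are the arginase Arg1, the resistin-like protein Retnla and the chitinase-like lectin Chil3, and resident alveolar macrophages hold Chil3 at a high level without any challenge. Chitinase-like proteins keep the fold of a chitinase but have lost its activity, whereas Chia1 is an active enzyme of the lung and stomach.

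Each array had 20132 to 20912 of the 27195 genes well above background. The lung label was checked against 10 alveolar type 2 cell markers, and 10 of 10 were above background on all 4 arrays. All 4 arrays lay on 1 slide and were scanned on 1 day. Heart muscle markers differed between the lung pools, with summed signals of 50.02 (sham) and 40.5 (ORX) times the 75th percentile with PBS, and 114 and 19.97 with PPE. Neutrophil markers summed to 91.3 and 108 with PBS and to 184 and 127 with PPE. The part of such other tissue or cells in the values below was not tested. In whole lung, fewer cells of a type and less RNA per cell cannot be told apart.

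Signals below are scaled so that each array's 75th percentile is 1000, and differences are on the log2 scale, where 1 is 2-fold. Of the 10 members, 9 were well above background on all 4 arrays, and Cd200r2 was so only on the PPE arrays. The sham/PBS array was the lowest of the 4 for 7 of these 9 members, against 31.3% of 19320 genes above background throughout. The ORX/PPE array was the highest for 6 of the 9, against 24.2% of the same genes. The 4 signals of a member spanned at least 2-fold for 5 of the 9, against 4.18% of genes, with a median span of 1.09 against 0.31. These shares describe genes that were chosen from the same arrays, so nothing is read from them.

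**Figure D1:**
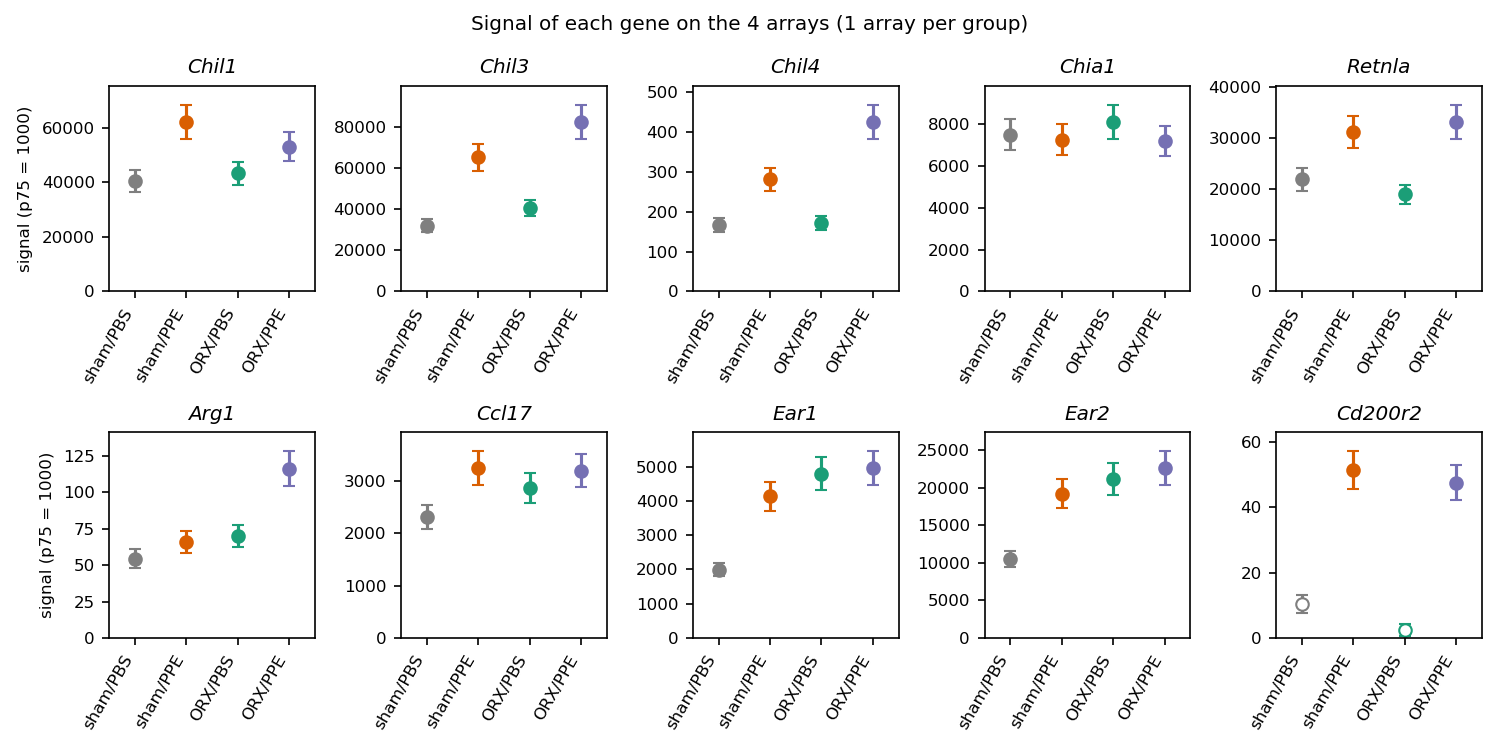
Signal of each of the 10 genes on the 4 arrays (vertical axis from 0, linear, scaled to a 75th percentile of 1000), with 1 point per array, the software's error as bars and open circles where the probe was not well above background. Chil3 and Chil4 are highest on ORX/PPE, Ear1 and Ear2 are lowest on sham/PBS, and Cd200r2 has open circles on both PBS arrays.

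The chitinase-like lectin Chil3, also known as Ym1, was about 2-fold higher under PPE in both surgeries. With PBS, Chil3 read 31996 after sham surgery and 40553 after ORX, and with PPE it read 65297 and 82594. Both PPE arrays thus lay above both PBS arrays, and within each agent the ORX array lay above the sham array. The PPE difference was 1.03 ± 0.20 in sham and 1.03 ± 0.20 in ORX mice, and the ORX difference was 0.34 ± 0.20 under either agent. Neighbouring arrays in its order were 0.34, 0.69 and 0.34 apart, each more than the software's error of 0.20. That error was 10% of the Chil3 signal on every array and holds no spread between mice, so it does not settle the order. The difference between its PPE differences was -0.0029 ± 0.29. Both calls lay at the threshold, since quantile normalization put the PPE differences at 0.92 in sham and 0.996 in ORX mice. Alveolar macrophage markers, 13 of 13 above background on all arrays, summed to 64.4 (sham) and 78.8 (ORX) times the 75th percentile with PBS and to 95.4 and 84.2 with PPE, and their part in the Chil3 signal was not tested.

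Chil4, the close relative of Chil3 known as Ym2, was higher under PPE in both surgeries and passed 2-fold in ORX mice. With PBS, Chil4 read 167 after sham surgery and 171 after ORX, and with PPE it read 280 and 425. The PBS arrays were alike, with an ORX difference of 0.04 ± 0.21, and both PPE arrays lay above them. PPE went with 0.75 ± 0.21 more signal in sham and 1.31 ± 0.21 in ORX mice, which is 1.68-fold and 2.49-fold. The gap between these PPE differences was 0.56 ± 0.29. It did not reach 1, a size passed in either direction by 565 of 19320 genes (2.92%). Background correction by normexp lowered the PPE differences to 0.62 in sham and 1.06 in ORX mice.

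Chil3 and Chil4 lie side by side on chromosome 3, and the letters of their promoters and probes are shown for comparison. The probes lie 56.1 kb apart on mm9 (the minus strand, chr3:105950485-105950544 for Chil3 and chr3:106006584-106006643 for Chil4), and the Chia1 probe lies 15.5 kb from that of Chil3. The last bases of the Chil3 probe hold the polyadenylation signal AATAAA in capitals, whereas the Chil4 probe holds no such signal.
Chil3 probe, last 30 bases: atgcttgtttcttgctctcacAATAAAttc
Chil4 probe: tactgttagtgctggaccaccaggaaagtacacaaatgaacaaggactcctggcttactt
The longest run of letters that these probes share is 7 bases, and at best 20 of 54 aligned bases are identical. Neither probe was compared with the transcript of the other gene, so these letters do not show how far the arrays separate the pair. On sham/PBS, Chil3 read 31996 and Chil4 167, and the part of Chil3 transcripts in the Chil4 signal was not tested.

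The promoters of the pair, from RefSeq on GRCm38.p6, run from 250 bases before to 50 after the start site and were read on the minus strand. Capitals mark the STAT-type palindrome TTCNNNGAA and the TATA box letters TATAAA.
Chil3 promoter, chr3:106167515-106167814: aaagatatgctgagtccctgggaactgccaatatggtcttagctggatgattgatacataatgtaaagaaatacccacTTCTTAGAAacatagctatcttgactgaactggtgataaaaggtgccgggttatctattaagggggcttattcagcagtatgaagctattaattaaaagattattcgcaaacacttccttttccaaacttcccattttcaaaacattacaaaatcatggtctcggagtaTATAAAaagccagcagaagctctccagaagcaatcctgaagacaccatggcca
Chil4 promoter, chr3:106219430-106219729: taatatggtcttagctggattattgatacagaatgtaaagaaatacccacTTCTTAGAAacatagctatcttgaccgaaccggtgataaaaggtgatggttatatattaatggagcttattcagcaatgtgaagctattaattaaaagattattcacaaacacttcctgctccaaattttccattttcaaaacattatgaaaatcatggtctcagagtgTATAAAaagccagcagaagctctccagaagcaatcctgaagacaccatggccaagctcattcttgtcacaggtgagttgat
Aligned without gaps, they were identical at 200 of 272 bases (73.5%), with a longest shared run of 53 bases. Both hold the letters TTCTTAGAA and TATAAA, with the latter at -3 from the listed start site in Chil3 and at -31 in Chil4. On either strand, TTCNNNGAA occurs in 8.3% and TATAAA in 13.6% of 32851 promoters of this length. A match is a description of letters and does not show a bound factor.

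Chil1, the chitinase-like glycoprotein known as YKL-40 in humans, was higher under PPE in both surgeries, below 2-fold. With PBS, Chil1 read 40547 after sham surgery and 43298 after ORX, and with PPE it read 62259 and 53107. Both PPE arrays lay above both PBS arrays, and the highest was sham/PPE, unlike Chil3. The PPE difference was 0.62 ± 0.20 in sham and 0.29 ± 0.20 in ORX mice. The ORX differences were 0.09 under PBS and -0.23 under PPE, each ± 0.20, and the first turned to -0.0036 under quantile normalization.

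Chia1, the acidic mammalian chitinase that cleaves chitin, was nearly level. With PBS, Chia1 read 7494 after sham surgery and 8122 after ORX, and with PPE it read 7265 and 7195. All 4 values lay within a span of 0.17, smaller than the software's error of a difference. It was the only member with a PPE difference below 0 in both surgeries, at -0.04 and -0.17, and the first was 0.02 under median centring. Of 5 other family members on the array, 0 passed 2-fold in any comparison, and their median was -0.19 under PPE in sham and 0.21 in ORX mice. Under PPE, Chil5 was at -0.54 in sham and 0.15 in ORX mice, the chitinase domain gene Chid1 at -0.31 and 0.21, and the oviductal glycoprotein Ovgp1 at 0.12 and 0.53.

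Retnla, the secreted resistin-like molecule alpha of macrophages, eosinophils and epithelium, was higher under PPE in both surgeries without reaching 2-fold. With PBS, Retnla read 21875 after sham surgery and 18942 after ORX, and with PPE it read 31084 and 33147. The PPE arrays lay above the PBS arrays, with differences of 0.51 ± 0.20 in sham and 0.81 ± 0.20 in ORX mice. ORX went with -0.21 ± 0.20 under PBS and 0.09 ± 0.20 under PPE. The signs differed, but the first was about the size of the software's error and the second lay within it. Of its relatives, the neutrophil gene Retnlg was at 2.18 in sham and 0.84 in ORX mice under PPE, whereas resistin itself, Retn, was at 0.05 and -0.87. Retnlb was not above background on any array. Retnla is also made in fat, and the fat cell markers summed to 38.0 (sham) and 45.3 (ORX) times the 75th percentile with PBS and to 58.3 and 35.0 with PPE, with 8 or 9 of 9 above background. In sham mice both Retnla and the fat sum were higher with PPE than with PBS. In ORX mice Retnla was higher and the fat sum lower with PPE. The part of fat cells in the Retnla signal was not tested.

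The Retnla promoter is shown because it is a textbook target of STAT6. It is read on the plus strand of GRCm38.p6 from RefSeq, and capitals mark the palindrome TTC and GAA with 4 bases between, which STAT6 prefers, and the TATA box letters.
Retnla promoter, chr16:48842359-48842658: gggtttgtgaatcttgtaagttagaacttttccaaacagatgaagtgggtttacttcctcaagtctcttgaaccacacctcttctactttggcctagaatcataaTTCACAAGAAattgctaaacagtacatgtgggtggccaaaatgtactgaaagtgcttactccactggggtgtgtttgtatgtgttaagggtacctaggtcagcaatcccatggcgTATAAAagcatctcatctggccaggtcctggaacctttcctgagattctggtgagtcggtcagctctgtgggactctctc
The palindrome lies 145 bases before the start site. Of the 9 member promoters in the table, Retnla and Ccl17 held that palindrome on either strand, against 6.95% of 32851 promoters, and Chil3, Chil4 and Ccl17 held TTCNNNGAA. Member promoters with neither palindrome were those of Chil1, Chia1, Ear1, Ear2 and Cd200r2, which says only that these letters are not in the window.

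Arg1, the enzyme that splits arginine into ornithine and urea, was dim on every array and was highest on ORX/PPE. With PBS, Arg1 read 54.5 after sham surgery and 70.0 after ORX, and with PPE it read 66.0 and 116. The other 3 arrays lay within 0.36 of each other, and ORX/PPE lay 0.73 ± 0.21 above ORX/PBS and 0.81 ± 0.22 above sham/PPE. In sham mice the PPE difference was 0.28 ± 0.23. Under normexp background correction the ORX differences were 0.01 under PBS and 0.30 under PPE. The probe lies on mm9 chr10:24636194-24636253 on the minus strand.
Arg1 probe: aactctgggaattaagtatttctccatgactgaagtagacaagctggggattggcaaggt
The letters are shown so that the transcript measured can be identified. Among 10 other genes of arginine and polyamine metabolism, 0 were at least 2-fold higher or lower in any comparison, with the mitochondrial arginase Arg2 at 0.45 and 0.50 and the nitric oxide synthase Nos2 at 0.31 and 0.43 under PPE in sham and ORX mice.

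Ccl17, the chemokine TARC that draws CCR4-bearing T cells, differed little. With PBS, Ccl17 read 2313 after sham surgery and 2857 after ORX, and with PPE it read 3243 and 3196. Only the sham/PBS array stood lower, and the gaps between neighbours among the other 3 were 0.16 and 0.02. PPE went with 0.49 ± 0.20 in sham and 0.16 ± 0.20 in ORX mice, and ORX with 0.30 under PBS and -0.02 under PPE. Of 9 other type 2 chemokines and receptors, 0 passed 2-fold in any comparison, and their median was 0.03 under PPE in sham and -0.29 in ORX mice. Under PPE, the T cell chemokine receptor Ccr8 was at 0.86 in sham and 0.31 in ORX mice, and the eotaxin Ccl24 at -0.03 and -0.83.

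The eosinophil-associated ribonucleases Ear1 and Ear2 are small secreted RNases named for eosinophil granules, and Ear genes are also read in alveolar macrophages. Their common pattern was a single low array, sham/PBS. With PBS, Ear1 read 1996 after sham surgery and 4793 after ORX, and with PPE it read 4129 and 4953, and Ear2 read 10508 and 21196 with PBS and 19223 and 22613 with PPE. The other 3 arrays lay within 0.26 of each other for Ear1 and within 0.23 for Ear2. Ear1 differed by 1.05 ± 0.20 under PPE in sham mice and by 0.05 ± 0.20 in ORX mice, and Ear2 by 0.87 ± 0.20 and 0.09 ± 0.20. ORX went with 1.26 for Ear1 and 1.01 for Ear2 under PBS, where Ear2 was at 0.98 after quantile normalization, and with 0.26 and 0.23 under PPE. The PPE difference in sham and the ORX difference under PBS share the sham/PBS array, so these are not separate observations of a change. The gap between PPE differences was -1.001 ± 0.29 for Ear1 and -0.78 ± 0.29 for Ear2. Ear1 thus lay right at 1, a size passed in either direction by 2.92% of 19320 genes.

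Ear genes are close relatives, and the 2 member probes were set against the other Ear probes on the array. The Ear1 and Ear2 probes share a run of at most 5 bases, with 21 of 58 aligned bases identical. Likeness to other Ear probes was greater, at 46 of 55 bases between Ear1 and an Ear7 probe and 40 of 45 between Ear2 and an Ear6 probe. That Ear7 probe was well above background on ORX/PBS only. Neither probe was compared with the transcripts of other Ear genes, so these letters do not settle which gene each signal belongs to. The probes lie 284.4 kb apart, on mm9 chr14:44396709-44396768 (minus strand) for Ear1 and chr14:44681119-44681178 (plus strand) for Ear2, and capitals mark a run shared with another probe on the array.
Ear1 probe, with a run of 20 bases shared with an Ear7 probe: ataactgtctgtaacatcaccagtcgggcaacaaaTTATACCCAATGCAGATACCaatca
Ear2 probe, last 30 bases, with a run of 23 bases shared with an Ear6 probe: taattttGCTGAATAGATCTTTTCTAATTA
The files list RefSeq transcripts of both Ear1 and Ear2 for the Ear2 probe, so its signal may hold both. In their promoter windows the pair were identical at 268 of 298 bases (89.9%), with a shared run of 204 bases. Ear6, Ear10 and Ear12, outside the 10 members, stood 1.102, 1.04 and 1.03 higher with ORX under PBS. Their PPE differences were 0.93, 0.84 and 0.83 after sham surgery but 0.09, 0.11 and 0.14 after ORX. Another Ear6 probe, the one with the run shared with Ear2, stood at 0.30, 0.47 and 0.29, so the 2 probes of Ear6 disagree in size. Ear4 was not above background on any array.

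Eosinophil markers were mixed beside the Ear genes. The granule peroxidase Epx was not above background on any array, and the major basic protein Prg2 was above it on 3 of 4. The IL-5 receptor Il5ra, the lipoxygenase Alox15 and the eotaxin receptor Ccr3 were above background on all 4. Il5ra stood at 0.87 with ORX under PBS and at 0.53 and 0.14 with PPE after sham surgery and ORX, the same signs as Ear1 and Ear2, with Alox15 at 0.34, 0.01 and -0.77 and Ccr3 at 0.38, -0.52 and -0.08. The 5 eosinophil markers on the array summed to 0.17 (sham) and 0.26 (ORX) times the 75th percentile with PBS and to 0.21 and 0.23 with PPE, lowest on sham/PBS like Ear1 and Ear2, and 0 of 4 compared passed 2-fold. The summed alveolar macrophage and neutrophil markers given above were lowest on sham/PBS too. So were the sums for monocytes and interstitial macrophages, at 101, and for basophils and mast cells, at 0.87. Dendritic cell markers were not, with 26.6 on sham/PBS and 23.3 on ORX/PBS. The part of any of these cell types in the Ear signals was not tested.

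Cd200r2, a myeloid relative of the CD200 receptor, was well above background only on the PPE arrays. Its signal was 51.3 on sham/PPE and 47.5 on ORX/PPE, and not well above background on sham/PBS, at 10.4, and on ORX/PBS, at 2.46. PPE went with at least 4.22-fold more signal in sham and at least 4.99-fold more in ORX mice, where the bound sets the PPE array against the lowest signal well above background on the PBS array, or the probe's own if higher. Between the PPE arrays the ORX difference was -0.11 ± 0.23. Under normexp the PPE differences were 0.78 and 0.95, below 2-fold, so these calls rest on how the dim PBS signals are treated. Its relatives Cd200r4 and Cd200r1 were at 1.01 and 0.82 under PPE in sham mice and at 0.19 and 0.36 in ORX mice, and Cd200r3 was not above background on any array.

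**Figure D2:**
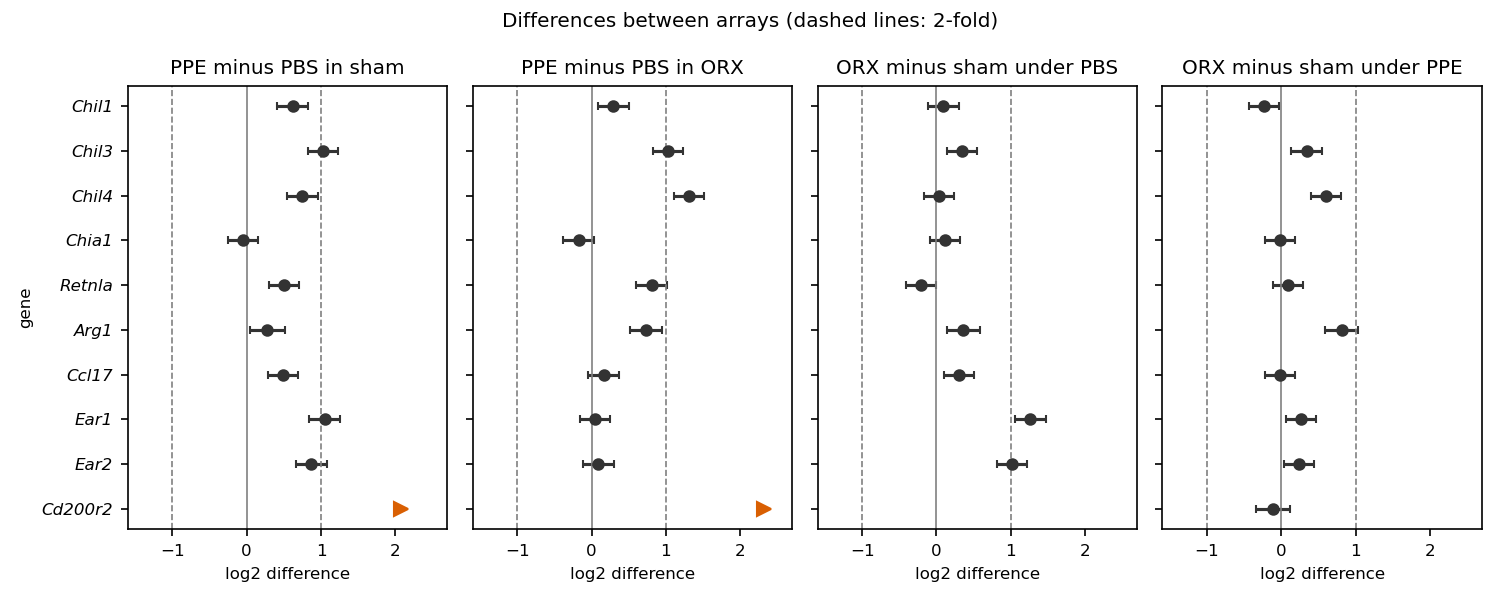
Log2 difference of each of the 10 genes in the 4 comparisons, with the software's error as bars, triangles for lower bounds and dashed lines at 2-fold. Under PPE, Chil3 lies at 1.03 in both surgeries and Cd200r2 is a bound in both, whereas Ear1 lies at 1.05 in sham and 0.05 in ORX mice.

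Read by comparison, PPE in sham mice went with at least 2-fold higher signal for 3 of 10 members, Chil3, Ear1 and Cd200r2, where 1.26% of 20859 genes tested were so called. Lower by 2-fold were 0 members, where 0.451% of genes were. The 9 members measured on both arrays had a median of 0.62, against 0.02 over all genes. Above 0 lay 9 of 10, against 52.8% of all genes compared. Cd200r2 counts among them as a bound, which could only lie above 0. In ORX mice, PPE went with 3 of 10 higher, Chil3, Chil4 and Cd200r2, against 0.695% of 21159 genes, and 0 lower, against 0.369%. The median was 0.29, against -0.0034 over all genes. These shares come from the contrast the members were chosen on and are given beside the counts only.

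ORX under PBS went with 2 of 9 members compared at least 2-fold higher, Ear1 and Ear2, against 0.585% of 21205 genes, and 0 lower, against 1.26%. The median was 0.30, against -0.0041 over all genes. Under PPE, ORX went with 0 of 10 members past 2-fold in either direction, against 0.322% higher and 1.41% lower of 20780 genes, and Arg1 at 0.81 and Chil4 at 0.60 were the highest.

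**Figure D3:**
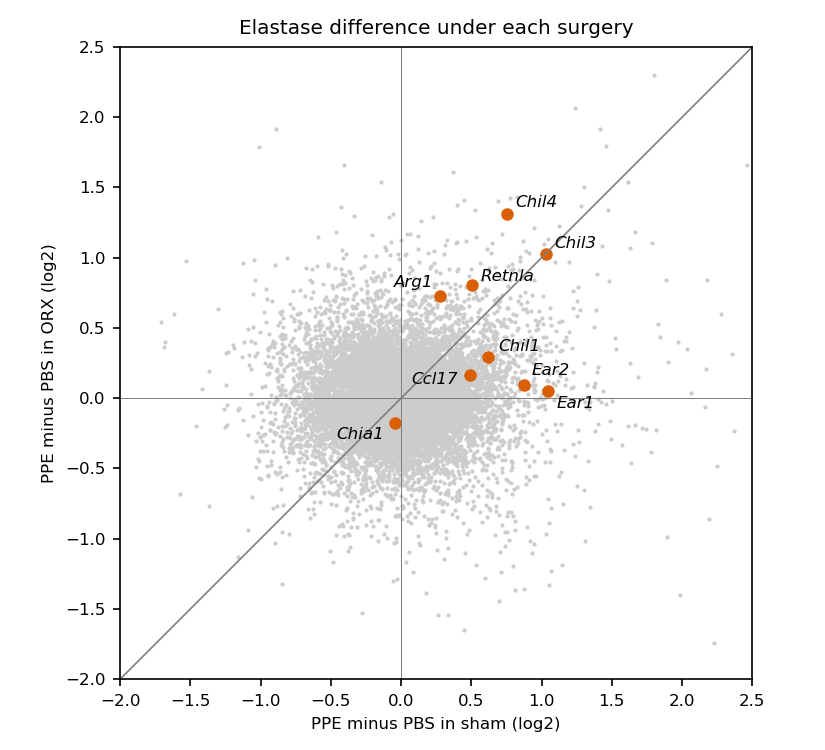
Log2 difference under PPE in ORX mice (vertical) against that in sham mice (horizontal) for 19320 genes (grey, 5 outside the axes) and the 9 members above background on all 4 arrays (orange). Chil3 lies on the diagonal, Chil4, Arg1 and Retnla above it, and Ear1 and Ear2 near 0 on the vertical axis.

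Beyond the members, few genes of the same pathway passed 2-fold, as few genes did in all (1.26% higher and 0.451% lower under PPE in sham mice), so nothing is read from these counts. Of 21 other genes of alternative macrophage activation, 0 passed 2-fold under PPE in sham mice. In ORX mice the macrophage elastase Mmp12, at 1.43, was higher and the folate receptor Folr2, at -1.08, lower. Among 17 type 2 cytokines, receptors and signalling genes compared, 0 passed 2-fold under PPE in sham mice, with the transcription factor Gata3 at 0.49, the epithelial cytokine Tslp at -0.01, Il4 at 0.00 and Il13 at -0.08. In ORX mice PPE went with 0.71 for Il13, -0.37 for Gata3, -0.21 for Tslp and -0.33 for Il4. With ORX under PBS, Gata3 stood at 0.85, Tslp at 0.75 and Il13 at -0.55. Il5 and Il9 were not above background on any array. The cytokine Il25, named here because its calls were seen in the values, was above background on 2 arrays and passed 2-fold as a bound, at -1.33 under PPE in ORX mice and 1.43 with ORX under PBS.

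Cell type markers moved with the members in places. Alveolar macrophage markers had 3 of 13 at least 2-fold higher under PPE in sham mice, Marco at 1.80, Fabp4 at 1.16 and Atp6v0d2 at 1.01, and 1 of 13 in ORX mice, Marco at 2.30. Their medians were 0.52 and 0.12. Fabp4, which also counts in the alveolar macrophage sums above, was at -0.37 under PPE in ORX mice and at -1.18 with ORX under PPE. Under PPE, fat cell markers had 3 of 9 at least 2-fold higher in sham and 0 of 9 in ORX mice, with medians of 0.88 and -0.18. The part of fat cells in the Fabp4 signal was not tested. Neutrophil markers had 6 of 11 higher in sham and 0 of 11 in ORX mice under PPE, with medians of 1.26 and 0.16. Club and goblet cell markers of the airway epithelium had 1 of 11 at least 2-fold higher under PPE in sham and 2 of 11 in ORX mice, with medians of -0.25 and 0.03. The lectin Itln1 was at 2.47 and 1.66, and the goblet cell gene Clca1 at -0.89 and 1.92. Clca1 was also at 2.04 with ORX under PPE, where Arg1 and Chil4 were the highest members, but Itln1 was at -1.11. In that comparison 1 of 11 of these markers was at least 2-fold higher and 1 of 11 lower, with a median of -0.10. The part of club and goblet cells in the members' values was not tested. Of basophil and mast cell markers, 2 of 7 were at least 2-fold higher with ORX under PBS, Cpa3 at 1.38 and Cma1 at 1.08. That list was split, with 0 of 7 at least 2-fold lower, other markers below 0 and a median of 0.07. Fat cell markers had 5 of 9 and heart muscle markers 7 of 9 lower with ORX under PPE, where no member passed 2-fold.

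**Figure D4:**
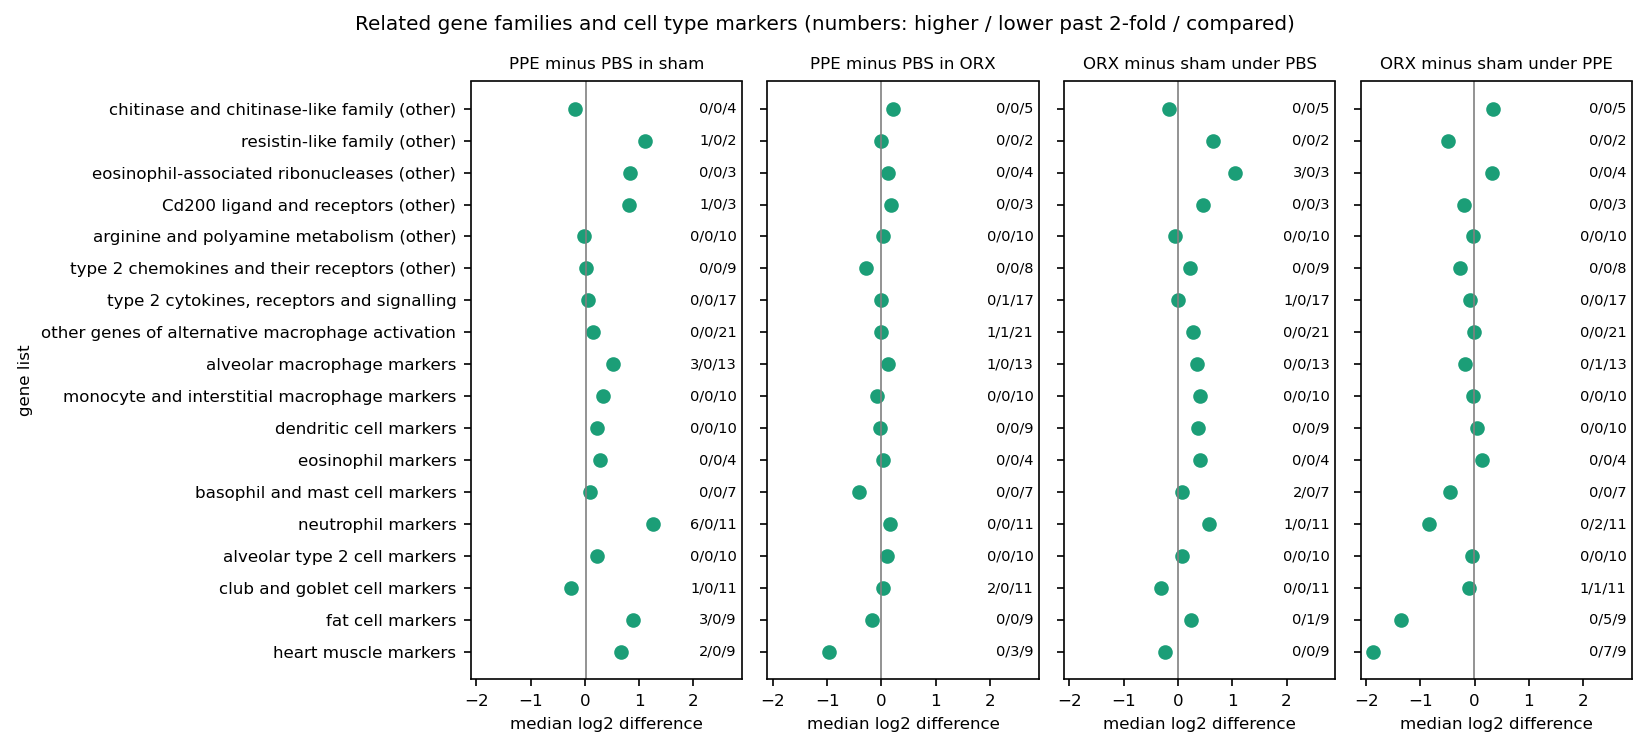
Median log2 difference of 18 lists of related genes and cell type markers in the 4 comparisons, with the counts higher, lower and compared at the right of each row and a grey line at the median of all genes. Neutrophil markers stand at 1.26 under PPE in sham mice, and heart muscle markers at -1.88 with ORX under PPE.

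Genes with the most similar profile over the 4 arrays were ranked for each member that spanned at least 2-fold, by the distance between centred log2 values among 15899 genes. For Chil3 they were Stac2 at a distance of 0.083, Ly6i at 0.14 and Ctsk at 0.20. Chil4 was nearest to Ahsp, at 0.22, and Arg1 to Aim2, at 0.053. Ear1 was nearest to Ear6, at 0.12, and Ear2 to Ear10, at 0.058. Likeness over 4 arrays is a description and carries no test.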

How the data were processed

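Total RNA of lung was measured on 4 Agilent arrays, 1 per group, each a pool of 5 mice. Per the file headers, the deposited intensity values are linear processed signals of Feature Extraction 10.7.1.1 with background and spatial trends removed and no scaling between arrays. The submitters' processing notes name version 9.5.1.1, and the conflict was not settled. Columns of 0 or 1, also deposited by the authors, mark spots above background, saturated or outlying. The value table deposited by the authors holds linear intensity with a median of 71.5 in all 4 columns, close to a quantile normalization of the same signals.

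Control and outlier spots (31 to 54 of 59305) were left out, spots of a probe were averaged, and log2 was taken with each array's 75th percentile (829.8 to 999.2) subtracted. A gene was its brightest probe, named through the reference table of GRCm38.p6 or the file, and probe coordinates are on mm9. A difference counted at 2-fold, as a bound where 1 array was not above background. With 1 array per group there was no test. Probes with at least 10 spots gave an SD of 0.052 for a difference.

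All 10 members are named, with at most 3 genes per list by largest difference and the 3 nearest profiles. Genes named as not above background, Prg2, Il4 and Il25 fall outside that rule and were chosen after their values were seen. Members and lists were chosen with earlier results of these data known. Alternatives were normexp (offset 50), quantile normalization, median centring, other filters, the mean of probes, the value table and a 1.5-fold threshold. The calling steps were run on simulated data only to check that the code recovered known folds. That simulation held no variation between mice and does not bear on whether a call is real. Python 3.11.15, numpy 2.4.6, pandas 2.3.3, matplotlib 3.10.9, R 4.3.3 and limma 3.58.1 (normexp only) were used.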

Additional observations from a re-analysis of the deposited data

How the results depend on the processing

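Of 64 counts of members past 2-fold recomputed under the alternatives, 57 stayed within 1.5 times and 7 moved, and no called difference changed sign. Many of the 57 were 0 in both settings. The mean of probes could not alter any count, because each member has 1 probe. The 57 are therefore no measure of how stable the calls were. Under normexp, members higher under PPE in sham mice numbered 1, against 3, and Chil3 was at 0.996 there. At a 1.5-fold threshold the counts higher were 6 and 5 under PPE in sham and ORX mice and 2 with ORX under PPE. Quantile normalization and the value table each gave 1 member higher with ORX under PBS, against 2, with Ear2 at 0.98 in both. Without a filter on dim probes, 1 member was lower with ORX under PBS, Cd200r2, which was above background on neither array. Sign changes in single members numbered 6 of 271, all of Chil1 and Chia1 differences under 0.1. Over all genes, normexp called 58 higher and 9 lower under PPE in sham mice, 18 and 8 in ORX mice, 28 and 68 with ORX under PBS and 4 and 90 with ORX under PPE, against 262 and 94, 147 and 78, 124 and 267, and 67 and 294. No filter called 1237 and 825, 939 and 855, 868 and 1108, and 738 and 1301 in that order, and a 1.5-fold threshold 1054 and 856, 717 and 516, 797 and 1194, and 504 and 962. Normexp moved the share of calls that were higher from 73.6% to 86.6% under PPE in sham mice and from 18.6% to 4.26% with ORX under PPE. No paired analysis was possible because each group is 1 array and the labels give no replicate numbers, and no array could be left out. The cause was not tested. Among single members, Arg1, Chil4 and Cd200r2 moved by more than the software's error, under normexp or, for Cd200r2, also without a filter.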
